A study of Homo sapiens with 24 samples.

Results

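The regions described are stretches of the PANC-1 genome that carried trimethylated lysine 4 of histone H3 (H3K4me3) away from annotated gene starts. H3K4me3 peaks of 6 libraries were merged into 44697 regions, of which 34159 had a peak in at least 2 lists. Of these, 12397 (36.3%) lay more than 5 kb from every transcription start site (TSS) of a protein-coding or long noncoding RNA (lncRNA) gene and are called distal. The remaining 21762 are called proximal. Among the distal regions, 6122 (49.4%) touched the body of such a gene (intragenic) and 6275 lay outside gene bodies (intergenic). The regions were thus selected on the presence of H3K4me3 peaks and on TSS distance, and their H3K4me3 values and distances are given as a description without a test of presence. Tests concern H3K27ac and H3K27me3, which the choice did not use.

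PANC-1 is an established cell line from a human pancreatic ductal carcinoma. Cells were transfected with a control siRNA and left untreated (siControl), transfected with the control siRNA and given TGFβ at 10 ng/ml for 48 h (siControl+TGFβ), or transfected with siRNA against PHF13, a PHD finger protein that binds H3K4me3, and given the same TGFβ (siPHF13+TGFβ). There were 2 libraries per group for each of H3K4me3, H3K27ac and H3K27me3, 18 in all, and the 6 input samples were not analysed here. No siPHF13 library without TGFβ was among the samples, so depletion was compared in TGFβ-treated cells only. Nothing says that the 2 libraries of a group came from separate cultures, so p-values measure only the spread between these libraries.

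H3K4me3 is deposited around the start sites of active or poised genes, most strongly at CpG islands, by methyltransferase complexes of the SET1 and MLL family. Enhancers usually carry little of it and are marked by monomethylated H3K4 with H3K27ac, the acetyl mark of active promoters and enhancers. H3K27me3 is placed by Polycomb repressive complex 2, and CpG-rich sequences that carry it together with H3K4me3 are known as bivalent. TGFβ drives carcinoma cells into epithelial-to-mesenchymal transition through SMAD factors that act with AP-1 at enhancers.

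The peak names inside the lists do not match the labels: the lists labelled siPHF13+TGFβ carry NCT, the study's abbreviation for siControl+TGFβ, and those labelled siControl+TGFβ carry 3AT. The study's table of peaks per library goes by the labels and not by these names, but it gives longer lists of every mark for the first siPHF13+TGFβ replicate, and of H3K27me3 for the first siControl replicate, than those deposited. Groups were taken from the labels, and directions hold only if these are right. With the labels of the TGFβ-treated groups exchanged, each difference given for depletion would have the opposite sign, and the H3K27ac share of distal regions with TGFβ would be 30.0% beside 32.5% in siControl. The lists hold peaks without read counts, and the sequencing depth behind them is unknown. Their lengths ran from 27869 to 39202 peaks for H3K4me3, from 6004 to 36104 for H3K27ac and from 59573 to 165717 for H3K27me3, and siPHF13+TGFβ replicate 1 had the shortest list for each mark. The epithelial keratin genes KRT8 and KRT18 had H3K4me3 and H3K27ac peaks within 5 kb of a TSS in 6 of 6 lists of each mark. KRT19 had H3K4me3 in 6 and H3K27ac in 5, and KRT7 in 3 and 5. The blood genes PTPRC and CD3E had H3K4me3 there in 2 and 3 lists and H3K27ac in 0, and the endothelial genes PECAM1 and CDH5 had neither.

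Sequences of different kinds underlay these regions. The first set shows the centres of 2 of the 3 widest regions searched that carried H3K27me3 and no H3K27ac in all 6 lists and lay away from large assembly gaps. Not every chromosome was searched for these sets. The windows are 300 bp long, in hg19 (GRCh37), with CpG dinucleotides in capitals.
chr1:218338221-218338520, plus strand: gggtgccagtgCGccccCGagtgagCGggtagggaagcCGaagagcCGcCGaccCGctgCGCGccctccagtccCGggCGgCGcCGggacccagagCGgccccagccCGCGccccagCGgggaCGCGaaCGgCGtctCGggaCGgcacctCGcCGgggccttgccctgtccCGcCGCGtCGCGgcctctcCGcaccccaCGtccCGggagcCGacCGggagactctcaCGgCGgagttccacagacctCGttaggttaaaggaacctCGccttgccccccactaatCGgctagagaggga
chr10:102415249-102415548, plus strand: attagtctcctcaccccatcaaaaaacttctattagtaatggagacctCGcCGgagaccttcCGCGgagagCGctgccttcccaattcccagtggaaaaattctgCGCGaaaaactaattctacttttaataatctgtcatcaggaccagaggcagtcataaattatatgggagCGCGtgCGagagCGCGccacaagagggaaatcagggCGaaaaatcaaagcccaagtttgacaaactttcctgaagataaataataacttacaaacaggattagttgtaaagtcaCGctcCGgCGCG
The first lies 119196 bp from RRP15, a ribosome biogenesis factor, and holds 40 CpGs at a GC content of 74.0%. The second lies 78558 bp from PAX2, a developmental transcription factor, and holds 17 CpGs. H3K27me3 covered all 2138 bp of the first region in 5 lists and 1657 bp of it in siPHF13+TGFβ replicate 1.

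The second set shows regions that had H3K27ac in both siControl+TGFβ libraries and in neither siControl library. Among the regions searched, those away from large assembly gaps with TGANTCA in their central 300 bp were considered. The 3 with the most H3K27ac are shown. TGANTCA is a loose form of the AP-1 motif, in which N stands for any base. The motif is in capitals.
chr10:112296003-112296302, plus strand: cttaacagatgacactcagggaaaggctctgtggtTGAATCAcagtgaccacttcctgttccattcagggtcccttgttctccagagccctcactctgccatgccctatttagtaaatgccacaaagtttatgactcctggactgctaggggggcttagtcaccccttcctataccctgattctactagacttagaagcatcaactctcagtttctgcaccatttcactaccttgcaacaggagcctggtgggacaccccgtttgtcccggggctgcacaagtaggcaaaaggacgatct
chr6:106035436-106035735, plus strand: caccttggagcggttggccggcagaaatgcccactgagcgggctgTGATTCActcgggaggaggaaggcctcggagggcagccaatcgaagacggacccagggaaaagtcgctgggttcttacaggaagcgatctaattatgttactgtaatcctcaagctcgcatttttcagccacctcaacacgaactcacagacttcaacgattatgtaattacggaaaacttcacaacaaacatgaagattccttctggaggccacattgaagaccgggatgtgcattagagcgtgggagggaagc
chr2:119426259-119426558, plus strand: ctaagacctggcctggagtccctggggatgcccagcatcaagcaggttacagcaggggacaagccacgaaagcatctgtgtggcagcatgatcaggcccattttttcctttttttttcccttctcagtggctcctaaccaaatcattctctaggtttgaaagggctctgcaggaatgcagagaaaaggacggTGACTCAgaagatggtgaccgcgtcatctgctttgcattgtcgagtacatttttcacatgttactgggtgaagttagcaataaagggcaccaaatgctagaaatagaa
The first is centred in the region 30595 bp from SMC3, a cohesin subunit, the second lies in the lncRNA gene ENSG00000286084, 133060 bp from PREP, a peptidase, and the third lies 174735 bp from EN1, a homeobox gene. All 3 windows hold 1 match, with A, T and C at N in this order.

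Distal regions were shorter and less often shared between lists than proximal ones. The H3K4me3 peaks covered a median of 348 bp per distal region (mean of 6 lists, quartiles 159 and 698 bp) and of 1332 bp per proximal region. All 6 lists held 4335 distal regions (35.0%) and 17122 proximal ones (78.7%), and 2371 distal regions were in exactly 2 lists. At distal regions with a peak, the median fold enrichment that the peak caller gave lay between 5.22 and 6.03 in the 6 lists, against 5.61 to 6.52 at proximal ones. Distal regions took between 11.4% and 20.9% of the base pairs that H3K4me3 covered in regions shared by at least 2 lists.

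**Figure D1:**
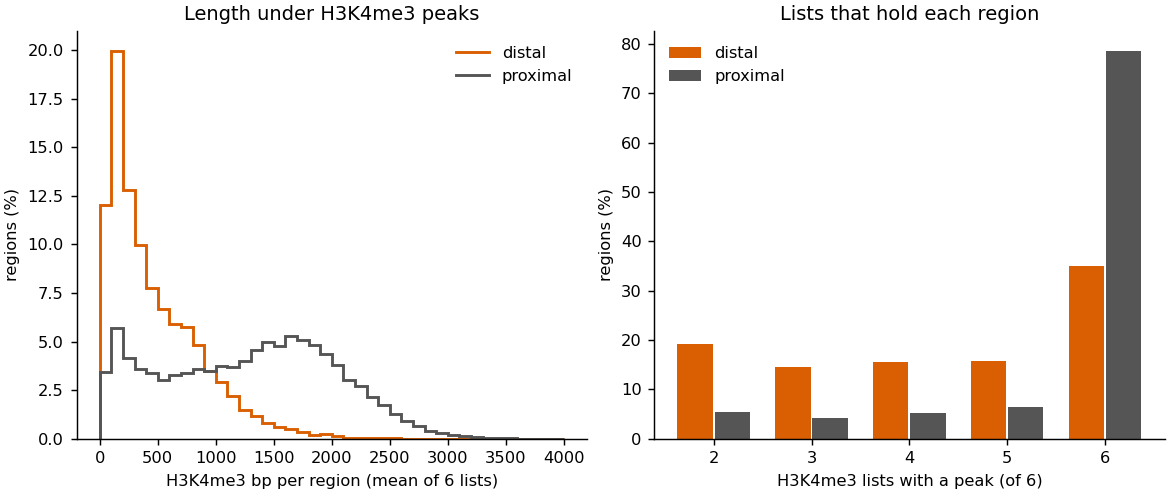
Left, distribution of H3K4me3-covered base pairs per region (mean of 6 lists, bins of 100 bp) as a percentage of the 12397 distal and 21762 proximal regions. Right, percentage of each set found in 2 to 6 of the 6 lists. Distal regions peak at 100 to 200 bp and 35.0% of them are in all 6 lists, against 78.7% of proximal regions.

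By library, 52.8% and 84.9% of distal regions had an H3K4me3 peak in siControl replicates 1 and 2, 93.0% and 82.9% in the siControl+TGFβ libraries, and 42.5% and 76.7% in the siPHF13+TGFβ libraries. Replicate 1 was the lower library in siControl and in siPHF13+TGFβ and the higher one in siControl+TGFβ, and the ranges of siControl and siControl+TGFβ overlapped. The corresponding shares of proximal regions ran from 81.6% to 98.3%, a narrower range.

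The distal regions lay at a median of 20.7 kb from the nearest TSS, 16.3 kb for intragenic and 27.6 kb for intergenic ones. There were 2788 (22.5%) within 5 to 10 kb, 6840 (55.2%) within 10 to 50 kb, 1439 (11.6%) within 50 to 100 kb and 1330 (10.7%) beyond 100 kb. Just inside the limit, a 220 bp region in an intron of NBPF15 lay 5001 bp from the lncRNA gene RP11-666A1.5. It had H3K4me3 in 2 lists and neither other mark. A 1074 bp region at 5005 bp from FRG2C had H3K4me3 and H3K27me3 in all 6 lists. Just outside the limit, a region at 4998 bp in the lncRNA gene ENSG00000255202 and a region at 4997 bp from CCN5 had H3K27ac in 6 and 5 lists.

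Of the intragenic regions, 4754 lay in a protein-coding gene and 1368 in lncRNA genes only. Introns alone held 5381 of them (87.9%), and 741 touched an exon. The 2691 protein-coding host genes held 1 region in 1634 cases and 10 or more in 21. MAML3, a coactivator of Notch signalling, held the most with 17, of which 9 had H3K27ac in at least 2 lists and 0 had H3K27me3. FMNL2, a formin of the actin cytoskeleton, PDE4D, a cAMP phosphodiesterase, and TRIO, a guanine nucleotide exchange factor for small GTPases, held 14 each, as did the unnamed gene ENSG00000286185. H3K27ac was in at least 2 lists at 12 of the FMNL2 regions, 11 of the TRIO regions, 6 of the PDE4D regions and 5 of those of ENSG00000286185. Per 100 kb of gene, ENSG00000286185 held 8.96 regions, FMNL2 4.45, MAML3 3.89, TRIO 3.60 and PDE4D 0.901. NBPF10, on chromosome 1 like ENSG00000286185, held 13 regions, or 8.68 per 100 kb. Whether these genes share regions, or reads of other copies were counted there, was not tested. A TSS of another gene type, such as a pseudogene or small RNA, lay within 1 kb of 627 distal regions (5.06%), and 254 of these were nearest to a processed pseudogene.

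The 5 widest intragenic and the 5 widest intergenic regions carried H3K4me3 in every library. The widest of all touched an exon of CRYBG1, which encodes a protein with crystallin-type domains (chr6:106958073-106962553, 26456 bp from its nearest TSS). Its H3K4me3 peaks covered 4092 and 3920 bp in the siControl libraries, 3775 and 3834 bp in the siControl+TGFβ libraries and 3020 and 3775 bp in the siPHF13+TGFβ libraries. H3K27ac took up 1034 and 1348 bp of it, then 1522 and 1362 bp, then 343 and 1432 bp in the same order, and H3K27me3 was listed in 0 lists. The lowest value of each mark was in siPHF13+TGFβ replicate 1.

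The next widest intragenic region lay in a lncRNA gene 5350 bp from HSPA6, an inducible HSP70 chaperone, with a mean of 2548 bp under H3K4me3. A region in GBX2-AS1 (chr2:237086465-237089345), 9436 bp from the homeobox gene GBX2, had 860 and 882 bp of H3K27ac in siControl and 2819 and 1758 bp in the siControl+TGFβ libraries. In siPHF13+TGFβ it had 0 bp in replicate 1 and 2665 bp in replicate 2, so the siControl and siControl+TGFβ values did not overlap, and of the siPHF13+TGFβ values 1 was below both ranges and 1 within that of siControl+TGFβ. An intron of INPP5A, an inositol phosphatase gene, had H3K4me3 over 2350 to 2512 bp in every list and H3K27ac over 1092 to 2512 bp. A region in PCBD2 overlapped MTND5P11, a nuclear copy of a mitochondrial gene, so that reads of other copies may have been counted there.

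The widest intergenic region, at chr6:58776263-58779491 beside the centromere, had H3K4me3 over 3024 to 3229 bp, H3K27ac over 3016 to 3229 bp and H3K27me3 over 450 to 1194 bp in the 6 lists. Another of the widest lay 14676 bp from GNGT2, a G-protein gamma subunit gene (chr17:47268814-47271598). Its H3K4me3 covered 2751 and 2720 bp in the siControl libraries, 2730 and 2737 bp in the siControl+TGFβ libraries and 2708 and 2699 bp in the siPHF13+TGFβ libraries, and H3K27ac covered 1186 to 2005 bp in all 6 lists. Of the others, 1 overlapped the pseudogene ZNRF2P1 and 1 the 5S ribosomal RNA gene RNA5S17, both families of near-identical copies, and 1 lay beside the centromere of chromosome 4. The widest regions with H3K27me3 in all 6 lists were the regions beside the centromeres of chromosomes 6 and 4 and a region 21036 bp from FRG2C on chromosome 3, where H3K27me3 covered all 2423 bp in 5 lists.

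H3K27ac was found at fewer distal than proximal regions in every library. It was present at 26.8% and 38.2% of distal regions in siControl, at 55.0% and 40.2% in the siControl+TGFβ libraries and at 8.94% and 51.0% in the siPHF13+TGFβ libraries. The distal share was lower than the proximal one by 18.3 percentage points ± 5.12 (SD, n = 6 libraries), in 6 of 6 libraries (two-sided exact sign-flip permutation over libraries, p = 0.0312, which is the lowest value possible for 6 libraries, Benjamini-Hochberg adjusted over 4 such comparisons p = 0.0417). This gap went with width: among regions with under 1500 bp of H3K4me3, the distal share was at or above the proximal one in every library and each of the 3 width ranges, and among the 280 distal regions of 1500 bp or more it was lower in 5 of 6. When H3K27ac had to cover at least 50% of a region, the difference was -3.41 points (exact p = 0.281).

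H3K27me3 was present at 17.2% and 23.2% of distal regions in siControl, 20.1% and 20.0% in the siControl+TGFβ libraries and 13.2% and 19.2% in the siPHF13+TGFβ libraries. Intergenic regions carried it more often than intragenic ones, at 20.7% to 33.6% against 5.54% to 12.6%, a difference of -18.8 points ± 1.99 (intragenic minus intergenic, SD, n = 6) with the same sign in 6 of 6 libraries (exact sign-flip test, p = 0.0312, adjusted 0.0417). The distal share exceeded the proximal one by 1.79 points ± 0.452 in 6 of 6 libraries (exact p = 0.0312, adjusted 0.0417). By width, it was above the proximal share in every library under 500 bp and from 1500 bp of H3K4me3, and below it in every library in between. H3K27ac was at 7.25% to 58.6% of intragenic and 10.6% to 51.5% of intergenic regions, and the difference of 2.72 points ± 4.25 was positive in 4 of 6 libraries (exact p = 0.188).

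**Figure D2:**
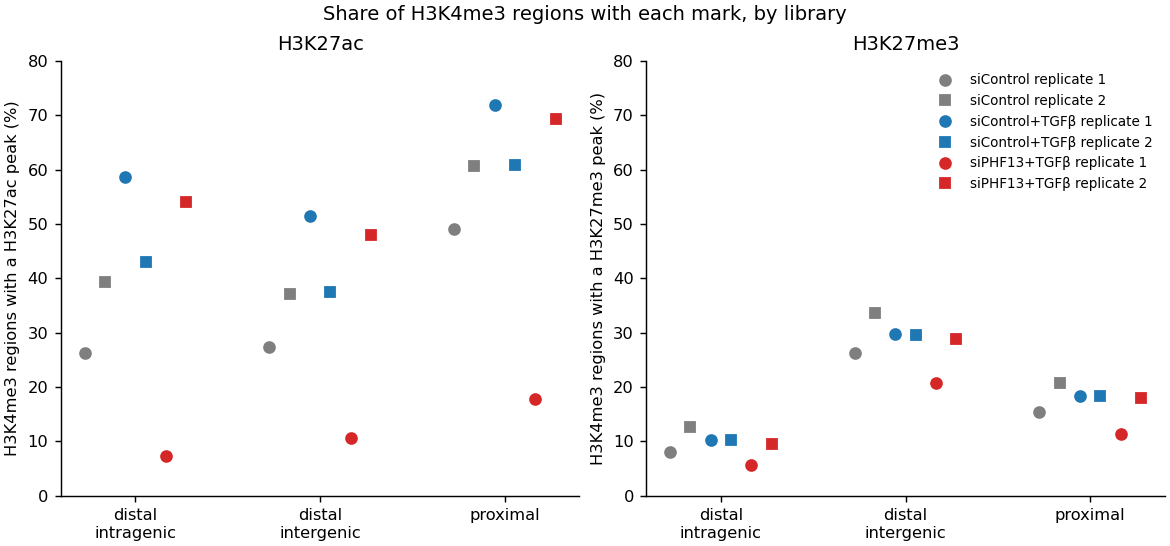
Percentage of distal intragenic, distal intergenic and proximal H3K4me3 regions with an H3K27ac (left) or H3K27me3 (right) peak, 1 point per library. Proximal regions sit highest for H3K27ac, intergenic ones for H3K27me3, and siPHF13+TGFβ replicate 1 is the lowest library in each set.

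Regions near large assembly gaps, which lie mainly at centromeres, were set apart after the data were seen. Within 5 Mb of a run of unknown sequence of at least 1 Mb lay 1752 distal regions (14.1%), 22.1% of the intergenic, 6.01% of the intragenic and 6.79% of the proximal ones. Intergenic regions near such gaps had H3K27me3 in 59.0% to 73.8% and H3K27ac in 25.5% to 71.9% of cases by library, whereas intergenic regions elsewhere had them in 9.85% to 22.3% and 6.36% to 45.8%. Without the regions near gaps, the distal share of H3K27me3 was 4.57 points below the proximal one instead of above it (exact p = 0.0312). The difference between intragenic and intergenic regions in H3K27me3 was then -7.84 points (exact p = 0.0312). Intragenic regions then had H3K27ac more often than intergenic ones by 8.67 points (exact p = 0.0312). With lists of equal length, over all distal regions, that difference was -5.24 points (exact p = 0.0312), the opposite direction.

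Distance showed the same dependence. H3K27me3 was at a mean of 13.3% of the regions within 5 to 10 kb of a TSS, 14.6% within 10 to 50 kb, 22.3% within 50 to 100 kb and 48.4% beyond 100 kb. Beyond 100 kb, however, 53.2% of the regions lay near a gap, and the remaining 622 had H3K27me3 in 6.99% (3.86% to 11.4% by library), below the 13.0% of regions at 5 to 10 kb that were away from gaps. H3K27ac likewise stood at a mean of 48.8% beyond 100 kb over all distal regions and at 26.0% over those away from gaps.

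**Figure D3:**
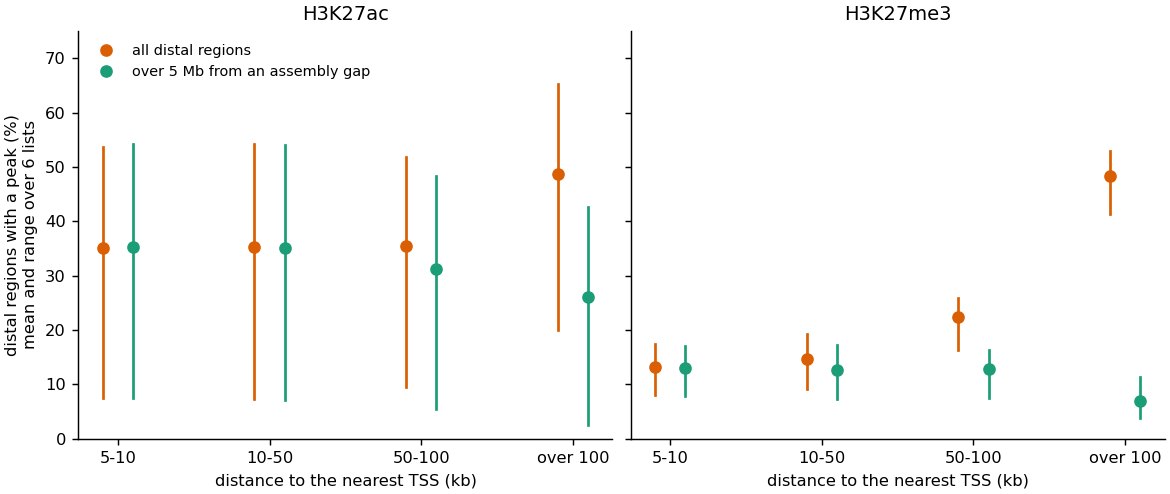
Percentage of distal regions with H3K27ac (left) or H3K27me3 (right) by distance from the nearest TSS, as the mean (point) and range (line) of 6 lists, for all distal regions and for those over 5 Mb from an assembly gap. Beyond 100 kb the mean H3K27me3 share is 48.4% over all and 6.99% away from gaps.

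By their marks in at least 2 lists, 5245 distal regions (42.3%, 95% Wilson interval 41.4 to 43.2) had H3K27ac only, 1707 (13.8%, 13.2 to 14.4) H3K27me3 only, 1070 (8.63%, 8.15 to 9.14) both, and 4375 (35.3%, 34.5 to 36.1) neither. These intervals cover counting error over regions only. The H3K27ac-only regions were intragenic in 61.0% of cases and had a median of 464 bp of H3K4me3, and those with neither mark had 257 bp. Proximal regions had neither mark in 14.2% of cases.

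Regions with both marks lay far from gene starts and near large gaps. Of them, 10.3% were intragenic, their median distance from a TSS was 118055 bp, and 863 (80.7%) lay within 5 Mb of a large gap. A satellite unit, the pentamer GGAAT repeated once in tandem and searched on both strands, was in the central window of 22.2% of them, against 2.15% of all distal and 0.0965% of proximal regions. Away from gaps, 207 regions with both marks were left, 1.94% of the 10645 distal regions there. The short TEAD motif GGAATG was in 37.5% of the windows with both marks, but it forms part of the satellite unit, and away from gaps its share was 15.9%, near the 17.3% of all distal regions. Satellite repeats have many near-identical copies, so peaks there are uncertain in position. Bowtie2 at its default parameters, as used by the authors, reports a single place for a read that aligns equally well to several, and no filter on mapping quality is given in the sources used here.

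The base composition of distal regions differed from that of proximal ones and varied with the mark. The median GC content of the central 300 bp was 47.3% at distal and 62.7% at proximal regions, and the median ratio of observed to expected CpGs was 0.359 and 0.702. Distal regions with H3K27me3 only had a ratio of 0.579, and 47.7% of them reached 0.6, a value often used to define CpG islands. Distal regions with H3K27ac only had a ratio of 0.291, and 13.1% of them reached 0.6. At proximal regions the ratio was 0.706 with H3K27ac only and 0.782 with H3K27me3 only, so that the 2 marks were closer to each other there.

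The pattern TGANTCA was searched as a loose form of the AP-1 motif, which FOS and JUN dimers bind. Any base was accepted at N, so matches are not limited to the AP-1 consensus. TGANTCA was in the central window of 19.4% of distal and 6.52% of proximal regions. Among distal regions it was in 29.8% of those with H3K27ac only, 15.0% of those with neither mark and 7.62% of those with H3K27me3 only. Away from gaps these shares were 30.0%, 14.8% and 7.76%. The motif CAGGTG, an E-box recognised by SNAI and ZEB factors, was in 20.2% of distal and 23.4% of proximal windows. The CTCF motif, in a long form with few free positions, was in 0.0242% and 0.0505%. Each motif was searched on both strands. A match describes the sequence and not a bound site.

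**Figure D4:**
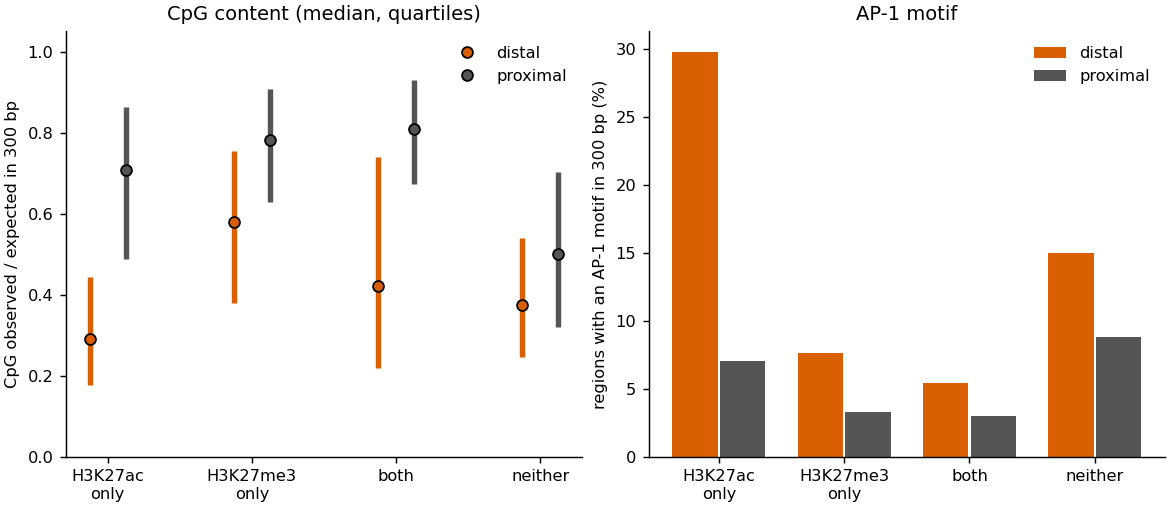
Left, observed over expected CpGs in the central 300 bp of distal and proximal regions by their marks, as the median (point) and quartiles (line). Right, percentage of these windows with the loose AP-1 motif TGANTCA. Distal regions with H3K27ac only have the lowest CpG ratio (median 0.291) and the largest AP-1 share (29.8%).

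To examine the response to TGFβ, the share of distal regions with H3K27ac was compared between siControl and siControl+TGFβ. The mean was 32.5% ± 8.05 in siControl and 47.6% ± 10.5 in siControl+TGFβ (SD, n = 2), a difference of 15.2 points with a pooled SD of 9.34, and the 2 groups did not overlap. The exact permutation test gave p = 0.333, the smallest that 2 against 2 libraries allow, so a difference between the groups was not established. The same difference was 18.1 points at intragenic, 12.3 at intergenic and 11.4 at proximal regions. As a ratio of distal to proximal shares, it was 0.28 on the log2 scale (exact p = 0.333), or 0.179 without siControl replicate 1 and 0.177 without siControl+TGFβ replicate 1. Without siControl replicate 1 the difference of distal shares was 9.46 points and without siControl+TGFβ replicate 1 it was 7.75. It was 5.30 points with the 4 lists brought to equal length and 0.254 points with all 6 lists at the length of the shortest, where the log2 ratio was -0.027. The log2 ratio was also negative, at -0.32, where H3K27ac had to cover 50% of a region.

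The H3K27me3 share differed by -0.214 points with TGFβ (20.2% ± 4.24 and 20.0% ± 0.0513, exact permutation p = 1.00), within the spread between replicates.

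H3K27ac was acquired with TGFβ, meaning a peak in both siControl+TGFβ libraries and in neither siControl library, at 780 distal regions (6.29%), against 4.42% of all 34159 H3K4me3 regions and 3.35% of proximal ones. It was missing by the reverse rule at 10 (0.0807%, with 0.041% of all regions). Of the 780, 470 (60.3%) were intragenic, against 49.4% of all distal regions, and 225 (28.8%) had H3K4me3 in all 6 lists, against 35.0%. Leaving out siControl replicate 2 or siControl+TGFβ replicate 2 raised the count to 1818 or 2071. The missing count was 80 without siControl replicate 1, 20 without siControl replicate 2 and 165 without siControl+TGFβ replicate 1. With lists of equal length 151 had acquired it and 103 lacked it. The loose AP-1 motif TGANTCA was in 29.7% of the central windows of the 780, close to the 29.8% of all distal regions with H3K27ac only.

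The region near GADD45B, a stress-inducible gene that TGFβ also induces, was among the 3 with the most acquired H3K27ac (chr19:2493650-2495813, 17296 bp from its TSS). H3K27ac covered 0 bp in both siControl libraries, 1604 and 1071 bp in the siControl+TGFβ libraries, and 0 and 1761 bp in the siPHF13+TGFβ libraries. Its H3K4me3 was present throughout, with 1878 and 1913 bp, 2087 and 2164 bp, and 1189 and 2034 bp. Here H3K4me3 was wide in untreated cells and H3K27ac was listed only in treated ones.

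The region near SMC3 (chr10:112295459-112296847) had H3K27ac over 0 and 0 bp in the siControl libraries, 1389 and 1122 bp in the siControl+TGFβ libraries and 0 and 1389 bp in the siPHF13+TGFβ libraries. H3K4me3, in the same order of libraries, had 320 and 656 bp, 1346 and 1239 bp, then 0 and 1040 bp. The region touching an exon of the lncRNA gene LINC02004 (chr3:134045589-134047231), 38452 bp from AMOTL2, an angiomotin family gene, had H3K27ac over 0 and 0 bp, then 1643 and 1134 bp, then 0 and 992 bp in the same order. In all 3 regions siPHF13+TGFβ replicate 2 had H3K27ac, as the siControl+TGFβ libraries did, and replicate 1 was at 0 bp.

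Of the regions where H3K27ac was missing with TGFβ, the one with the most touched an exon of TTLL8, a tubulin-modifying enzyme gene (chr22:50467938-50469066). It had 218 and 679 bp in the siControl libraries and 0 bp in the other 4 lists, while H3K4me3 covered 503 to 1129 bp in all 6. The other two with the most had under 450 bp in each siControl library and carried H3K27me3. They lay 108103 bp from SULF2, a heparan sulfatase gene, and 298910 bp from ZNF33B, a zinc finger gene.

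**Figure D5:**
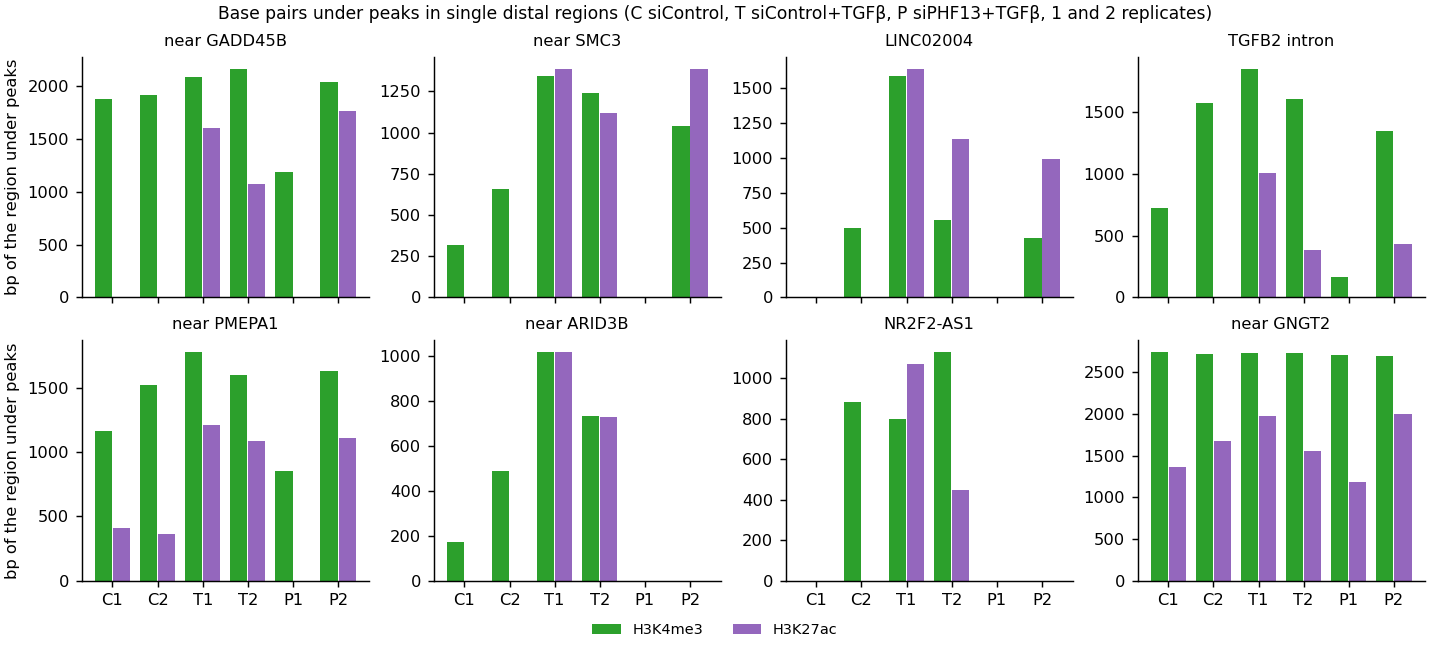
Base pairs under H3K4me3 and H3K27ac peaks in 8 distal regions by library. In the upper row, H3K27ac is at 0 bp in both siControl libraries and in siPHF13+TGFβ replicate 1. Near ARID3B and in NR2F2-AS1 it is listed in both siControl+TGFβ libraries alone, and near GNGT2 it is in all 6.

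Depletion of PHF13 under TGFβ was compared with siControl+TGFβ. The H3K27ac share of distal regions was 30.0% ± 29.8 in siPHF13+TGFβ and 47.6% ± 10.5 in siControl+TGFβ, a difference of -17.7 points that was smaller than the pooled SD of 22.3 (p = 0.667, exact permutation test). The siPHF13+TGFβ libraries, at 8.94% and 51.0%, were below and between the siControl+TGFβ libraries, and without siPHF13+TGFβ replicate 1 the difference was 3.39 points in the opposite direction (-38.7 points without replicate 2). The H3K27me3 share was 16.2% ± 4.27 against 20.0% ± 0.0513, so the difference was -3.79 points beside a pooled SD of 3.02. Both siPHF13+TGFβ libraries were below both siControl+TGFβ libraries (exact p = 0.333, the smallest possible), and the difference was -0.770 points without siPHF13+TGFβ replicate 1 and -6.80 without replicate 2.

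H3K27ac was missing after depletion at 150 distal regions (1.21%, with 0.837% of all regions) and acquired at 1 (0.00807%, with 0.00585% of all). Leaving out siPHF13+TGFβ replicate 1 left the missing count at 150, so of the siPHF13+TGFβ libraries only replicate 2 limited it. Without siPHF13+TGFβ replicate 2 the missing count was 3821 and without siControl+TGFβ replicate 2 it was 821, and the acquired count was 293 without siPHF13+TGFβ replicate 1, 12 without siControl+TGFβ replicate 1 and 4 without siPHF13+TGFβ replicate 2. Of the 780 regions that acquired H3K27ac with TGFβ, 12 (1.54%) had it in siPHF13+TGFβ replicate 1, 655 (84.0%) in replicate 2 and 125 in neither. Over all distal regions the shares were 8.94% in replicate 1 and 51.0% in replicate 2. This follow-up shares the siControl+TGFβ libraries with the choice of the 780 regions and is given as values only.

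The regions with the most H3K27ac missing after depletion lay near ARID3B, a DNA-binding protein gene, near PAPLN, an extracellular matrix protein gene, and in NR2F2-AS1. At chr15:74823548-74824567, 8980 bp from ARID3B, H3K27ac covered 1020 and 730 bp in the siControl+TGFβ libraries and 0 bp in the other 4 lists. H3K4me3 covered 173 and 486 bp in the siControl libraries, 1020 and 731 bp in the siControl+TGFβ libraries and 0 bp in both siPHF13+TGFβ libraries, so both marks were highest in siControl+TGFβ.

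At chr14:73694544-73695524, 8681 bp from PAPLN, H3K27ac covered 981 and 655 bp in the siControl+TGFβ libraries and 0 bp elsewhere, but H3K4me3 was at 0 bp in siControl+TGFβ replicate 2 and at 440 bp in siPHF13+TGFβ replicate 2. In NR2F2-AS1 (chr15:96807696-96808842), 60325 bp from the nuclear receptor gene NR2F2, H3K27ac covered 1074 and 448 bp in the siControl+TGFβ libraries alone, and H3K4me3, in the same order of libraries, had 0 and 883 bp, 797 and 1133 bp, then 0 and 0 bp. The single region that acquired H3K27ac, 209 bp long, lay on chromosome 9 at 215001 bp from FOXD4L5, and it also had 142 and 158 bp in siControl.

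H3K27me3 was acquired with TGFβ at 34 distal regions (0.274%, with 0.29% of all regions) and missing at 60 (0.484%, with 0.354%). After depletion it was acquired at 10 (0.0807%, with 0.0732%) and missing at 125 (1.01%, with 0.887%). Leaving out 1 library at a time raised these counts to between 53 and 307 (34 with all), between 102 and 377 (60 with all), between 35 and 123 (10 with all) and between 159 and 642 (125 with all), and every library of the comparison moved its count by over 1.5 times except siPHF13+TGFβ replicate 1 for the last. All 4 shares stood close to those of all H3K4me3 regions.

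H3K4me3 itself, which chose the regions, was acquired with TGFβ at 1039 distal regions (8.38%, with 4.76% of all regions) and missing at 81 (0.653%, with 0.302%). After depletion it was missing at 1661 (13.4%, with 7.48%) and acquired at 44 (0.355%, with 0.199%). These counts are a description, since the same peaks made a region a member.

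The width of H3K4me3 was fitted with limma over the 21457 regions in all 6 lists, of which 4335 were distal. Since the same mark chose the regions, the changes are given as a description and no test is read from them. The median log2 change was 0.23 with TGFβ and -0.43 after depletion, beside 0.12 and -0.22 at proximal regions. The first was 0.07 without siControl replicate 1 and 0.39 without replicate 2, the second was -0.10 without siPHF13+TGFβ replicate 1 and -0.73 without replicate 2, and after centring each library on its median they were 0.09 and -0.16. The change of all fitted regions was 0.13 and -0.24, so each value is to be read against it.

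A list of 45 genes was drawn from the TGFβ and epithelial-to-mesenchymal transition programmes, together with PHF13 and EZH2. These genes had 83 distal regions inside them or nearest to them, at 30 of the genes. The list holds genes, such as SOX9 and SNAI1, that the paper had named from these same H3K27ac and H3K4me3 libraries. The shares below may partly follow from that choice and are given as a description. H3K27ac was in at least 2 lists at 61 of the 83 (73.5%), against 50.9% of all distal regions, and H3K27me3 at 3 (3.61%), against 22.4%. The last share includes regions near large assembly gaps. Away from gaps, 13.9% of distal regions had H3K27me3 only and 1.94% had both marks. The 83 regions were not split in this way. H3K27ac was acquired with TGFβ at 11 (13.3%), against 6.29% of all distal regions, and missing after depletion at 2 (2.41%, against 1.21% of all distal regions and 0.837% of all H3K4me3 regions). SOX9, a transcription factor of ductal progenitors, had the most regions with 11, of which 7 had H3K27ac. Counts per gene were not scaled to the stretch of genome nearest to each gene, so their order is not one of density. SMAD3, the signal transducer of the TGFβ receptor, had 9, 8 of them with H3K27ac, and TGFB2, a TGFβ ligand, had 9, 7 of them with H3K27ac. JUN, an AP-1 subunit, had 6, PMEPA1 had 5, and SMAD7 and the receptor gene TGFBR2 had 4 each. The 3 regions with H3K27me3 belonged to ZEB2 and SNAI2, repressors of epithelial genes, and MMP2, a matrix protease gene.

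The ligand gene TGFB2 had its widest region in an intron. There (chr1:218530693-218532554, 10313 bp from the nearest TSS), H3K27ac covered 0 bp in both siControl libraries, 1007 and 387 bp in the siControl+TGFβ libraries and 0 and 432 bp in the siPHF13+TGFβ libraries. H3K4me3, in the same order of libraries, had 722 and 1576 bp, 1855 and 1605 bp, then 170 and 1350 bp. The siControl+TGFβ values were above the siControl ones for both marks, and the siPHF13+TGFβ values were spread widely.

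Among the inhibitors of the pathway, SMAD7, which blocks receptor signalling, had a region 24028 bp from its TSS (chr18:46501363-46503193) with H3K27ac over 793 and 988 bp in the siControl libraries, 1541 and 1005 bp in the siControl+TGFβ libraries and 0 and 1671 bp in the siPHF13+TGFβ libraries. PMEPA1, a TGFβ-induced gene whose product dampens the pathway, had a region 6103 bp away (chr20:56292695-56294479) with H3K27ac over 412 and 360 bp, then 1213 and 1091 bp, then 0 and 1112 bp in the same order. In both, H3K27ac was wider in both siControl+TGFβ libraries than in both siControl ones, and 0 in siPHF13+TGFβ replicate 1.

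Of the other named genes, a region 46901 bp from CCN1, a matricellular protein gene (chr1:86094047-86095740), had H3K27ac over all 1694 bp in 5 lists and over 1302 bp in siPHF13+TGFβ replicate 1. A region 144427 bp from SOX9 (chr17:69971012-69972734) had H3K27ac over 404 and 866 bp, then 1455 and 1134 bp, then 0 and 1421 bp in the same order. A region in EPCAM-DT, 71653 bp from the epithelial adhesion gene EPCAM (chr2:47499037-47500644), had 195 and 779 bp, then 1011 and 333 bp, then 0 and 897 bp of it in the same order, so the siControl and siControl+TGFβ values overlapped. Each of these 6 regions had H3K4me3 in all 6 lists and H3K27me3 in 0.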

How the data were processed

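H3K4me3, H3K27ac and H3K27me3 ChIP-seq of PANC-1 cells was deposited as 1 peak list per library. Per the study's methods and the submitters' processing notes, the authors trimmed reads with Trim Galore 0.4.1, aligned them to hg19 with Bowtie2 2.4.1, removed duplicates with Picard and called narrow (H3K4me3, H3K27ac) or broad (H3K27me3) peaks against input with MACS2 2.2.7.1. The deposited columns are a score, a fold enrichment ratio, and −log10 p and q values. The lowest −log10 q was 1.30 in narrow lists, so these hold peaks weaker than the cutoff given in the study's methods (a stricter limit was tried as an alternative), and 1.00 in broad lists. More deeply sequenced or better enriched libraries give more and wider peaks.

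Peaks were merged where they overlapped or touched, and a mark was present where its peaks covered at least 1 bp. TSSs were those of GENCODE 44 on GRCh37. Intergenic means outside protein-coding and lncRNA gene bodies. Shares were compared by exact two-sided permutation over libraries, 2 against 2, or by sign flips over 6 libraries. Width was log2 of covered bp, fitted with limma 3.58.1 (R 4.3.3) in 1 fit over 3 groups. Python 3.11.15, NumPy 2.4.6 and SciPy 1.17.1 were used, and intervals were checked on simulated data against bedtools 2.31.1. Named regions were the widest of each kind, those with the most H3K27ac acquired or missing, those at the distance limit, and the widest for each of 6 genes of the 45-gene list. Members, lists, the gap distance and the satellite motif were chosen with earlier results of these data known. A marker gene and some sequences are not reported here.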

Additional observations from a re-analysis of the deposited data

How the results depend on the processing

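The number of distal regions was 8215 with peaks in at least 4 lists, 4335 with all 6, 3064 with the strongest 50% of each list and 8167 with lists of equal length. Their intragenic share was 46.6%, 40.4%, 32.4% and 44.4% under these settings. It was 45.7% at a 10 kb distance, 55.8% with TSSs of protein-coding genes only, 51.1% with those of every gene type, 48.2% at a −log10 q of at least 3, 54.1% away from assembly gaps, and 48.3% to 49.4% with 1 library left out.

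Paired differences kept their sign with any library left out, where 5 libraries allow no exact p under 0.0625. H3K27ac, distal minus proximal, ran from -20.1 to -17.4 points and was -3.41 (p = 0.281, exact) with 50% of the region covered. H3K27me3, distal minus proximal, ran from 1.63 to 1.91 and was -4.57 away from gaps. H3K27me3, intragenic minus intergenic, ran from -19.5 to -18.4. H3K27ac, intragenic minus intergenic, was -5.24 with equal lengths and 8.67 away from gaps.

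With 1 library left out, the H3K27ac difference after depletion ran from -38.7 to 3.39 points and the H3K27me3 difference with TGFβ from -3.21 to 2.79, the latter being 0.323 with equal lengths and 0.0968 with 50% covered. The log2 ratio of distal to proximal H3K27ac shares with TGFβ was -0.027 with equal lengths and -0.32 with 50% covered. After depletion this log2 ratio was -0.227 with the main settings. It was 0.022 with the strongest 50% of each list, 1.01 with 50% of the region covered and 0.017 with regions in all 6 lists. With 1 library left out it ran from -0.503 to 0.049.

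H3K27ac counts with TGFβ, with 1 library left out, ran from 828 to 2071 acquired and from 12 to 165 missing. After depletion they ran from 1 to 293 and from 150 to 3821. With lists of equal length they were 151, 103 and 50, the last acquired after depletion. With regions in all 6 lists they were 225, 1, 0 and 44. Away from gaps 4 were missing with TGFβ and 0 acquired after depletion.

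H3K27me3 counts ran from 53 to 307 and 102 to 377 with TGFβ and from 35 to 123 and 159 to 642 after depletion. At a −log10 q of at least 3, 5 were acquired with TGFβ, and 2 acquired and 35 missing after depletion. With equal lengths 35 were missing with TGFβ, and 16 acquired and 83 missing after depletion. With regions in all 6 lists the counts were 12, 21, 2 and 36. H3K4me3 width, whose peaks chose the regions, gave 0 wider or narrower distal regions at an adjusted p under 0.05 (limma) and, as a description, up to 298 narrower ones after depletion with 1 library left out. The width counts of 0 cannot show that width was unchanged. When a log2 change of 1 was built into 200 of the 21457 regions for the TGFβ comparison, the fit recovered 0% of them. At a built-in change of 2 it recovered 73.5%. The 298 came without siPHF13+TGFβ replicate 2, which left 1 library in that group, so no test is read from it. Of 266 alternative values, 12 had the opposite direction and 59 were counts or intragenic shares that moved. A further 19 kept their direction at a larger exact p, and 1 did so at a smaller one. The other 175 were classed as unchanged, which did not require a similar size. They include the H3K27ac difference with TGFβ, 15.2 points in the main setting and 0.254 with equal lengths. Counts and intragenic shares were classed only as moved or unchanged, so the 12 do not cover them. Where no value shows the cause of a change, the cause was not tested.

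The correlations of same-numbered width deviations were -0.26, -0.22 and 0.46, with no common sign. They cannot show whether libraries with the same replicate number were prepared together. With the replicate block, the H3K27ac difference with TGFβ of 15.2 points had an exact sign-flip p of 0.5, the smallest that 2 pairs allow.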
